A study of Mus musculus with 12 samples.

Results

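The 8 genes described here mark the gas-exchange surface and the airways of the lung: Ager, Hopx, Aqp5, Rtkn2, Pdpn and Cldn18 for the alveolar type 1 (AT1) cell, Scgb1a1 for the secretory club cell and Foxj1 for the multiciliated cell. They are 8 of the 38127 genes counted by RNA-seq in 12 libraries of cells sorted from C57BL/6 mouse fetal liver (FL) after liberase digestion. They were picked by name because most of them were high in the E18.5 libraries of these same data and differed between those libraries, so their levels are described without a test. Tests are given only for other genes. All libraries were made from Ter119-CD45- cells, which lack the erythrocyte marker Ter119 and the pan-hematopoietic marker CD45, with 3 libraries per group. At E14.5 the groups were CD54+CD31- cells (called CD324+ cells here, after the epithelial cadherin the study used for them), CD54+CD31+ cells (CD31+, endothelial) and CD54-CD31-Kit+CD24+ cells (P2, erythroid progenitors). The last group was CD54+CD31- cells at E18.5, with the same labelled gate as CD324+ cells. No genotype or treatment distinguishes the groups. The study gives independent litters as the replicates at E14.5, and nothing in the sources used here says what separates the E18.5 libraries, so p-values measure the spread between these samples, which may in part be technical.

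AT1 cells are the thin, flat cells that cover most of the alveolar surface, and gas passes across them to the capillaries beneath. They arise late in gestation, beside the cuboidal surfactant-producing alveolar type 2 (AT2) cells, from progenitors at the tips of the branching airways. The conducting airways are lined by club cells, which secrete protective proteins, and by multiciliated cells, which move mucus and whose motile cilia are built under the control of Foxj1. The liver and the lung both bud from the foregut endoderm and share early regulators of the Foxa family. Pdpn is also made by mesothelial cells and lymphatic endothelium, Cldn18 by the stomach and Aqp5 by several glands.

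Promoter sequence is shown for the AT1 genes whose levels moved together and whose upstream bases lie outside annotated exons. The RefSeq promoter table (GRCm38.p6) held 7 windows for 5 of the 8 genes, Ager, Hopx, Aqp5, Pdpn and Cldn18. Rtkn2, Scgb1a1 and Foxj1 were not in it. Each run below is the 250 bases before an annotated start, 5′ to 3′ on the gene's strand, and capitals mark matches on either strand to the forkhead motif TGTTTNC or the NKX2-1 core CTCAAG.
Ager, chr17:34597600-34597849, plus strand: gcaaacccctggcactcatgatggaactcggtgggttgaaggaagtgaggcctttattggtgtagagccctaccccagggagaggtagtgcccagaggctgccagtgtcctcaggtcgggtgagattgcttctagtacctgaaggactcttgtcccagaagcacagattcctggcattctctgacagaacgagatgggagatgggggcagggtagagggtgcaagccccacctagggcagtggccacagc
Hopx, chr5:77115124-77115373, minus strand: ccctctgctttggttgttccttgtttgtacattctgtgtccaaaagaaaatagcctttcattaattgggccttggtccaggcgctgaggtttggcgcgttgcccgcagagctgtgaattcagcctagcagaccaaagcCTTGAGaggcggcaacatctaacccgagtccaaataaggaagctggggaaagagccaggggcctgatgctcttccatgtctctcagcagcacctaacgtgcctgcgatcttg
Pdpn, chr4:143299565-143299814, minus strand: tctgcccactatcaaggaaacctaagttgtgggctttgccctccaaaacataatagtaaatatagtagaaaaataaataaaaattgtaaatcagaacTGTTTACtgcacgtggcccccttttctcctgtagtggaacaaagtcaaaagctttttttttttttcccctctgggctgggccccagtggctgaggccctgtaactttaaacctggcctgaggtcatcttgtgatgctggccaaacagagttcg
Cldn18 upstream start, chr9:99717268-99717517, minus strand: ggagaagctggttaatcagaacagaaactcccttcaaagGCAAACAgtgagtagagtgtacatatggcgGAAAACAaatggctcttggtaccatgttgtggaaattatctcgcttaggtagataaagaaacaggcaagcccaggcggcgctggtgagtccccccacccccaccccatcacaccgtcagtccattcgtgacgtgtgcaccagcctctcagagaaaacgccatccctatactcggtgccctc
Cldn18 downstream start, chr9:99710064-99710313, minus strand: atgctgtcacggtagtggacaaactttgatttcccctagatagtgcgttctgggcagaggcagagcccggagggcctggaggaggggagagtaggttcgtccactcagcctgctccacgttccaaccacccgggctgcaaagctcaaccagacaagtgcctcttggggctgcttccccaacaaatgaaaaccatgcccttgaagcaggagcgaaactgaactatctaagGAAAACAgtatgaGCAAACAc
Both Cldn18 windows held 2 forkhead matches each, the Pdpn window held 1 and the Ager window none. The Hopx window held 1 NKX2-1 core match. The forkhead motif was present in 17.8% of the 32851 windows in the table and the NKX2-1 core in 13.3%. The TEAD motif GGAATG (12.6% of all windows), the AP-1 motif TGANTCA (6.75%) and the TATA motif TATAAA (12.4%) had no match in any of the 7 windows. The GC box GGGCGG (32.7% of all windows) had 2 matches, both in the Aqp5 window, which is not printed because it overlaps an annotated exon, as does the window of the second Hopx start. No match of one motif overlapped a match of another. These matches describe letters in the windows and nothing about binding.

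Total counts ranged from 40714017 to 64368883 per library, and from 53231403 to 64368883 at E18.5. The genes Cdk8, Zc3h7a and Il1rapl1 together took 19.18 to 23.14% of the counts in CD324+ libraries and 10.81 to 14.15% at E18.5. They took 14.25 to 20.39% in CD31+ and P2 libraries. Levels are CPM, the counts scaled to an equal, TMM-adjusted library size. In bulk samples, fewer cells of a type and less RNA per cell cannot be told apart. Replicate 1 of the E18.5 libraries stood apart from replicates 2 and 3. Its 12 hepatocyte list genes summed to 4120 CPM, against 46820 and 61670 CPM in replicates 2 and 3 and 78360 to 90170 CPM in CD324+ cells. Albumin (Alb), the main hepatocyte plasma protein, had 2405 CPM in replicate 1, 26600 CPM in replicate 2 and 34530 CPM in replicate 3. Each result on the E18.5 cells is therefore given with and without replicate 1 where this library bears on it. The labels of the E14.5 groups fitted their markers in the sums, though not in every gene. The summed endothelial list was 7764 to 8310 CPM in CD31+ cells and at most 353.6 CPM in the other 9 libraries. The summed erythroid list was 1364 to 1611 CPM in P2 cells and at most 560.8 CPM elsewhere. In that list Klf1, Gata1, Epor and Tfrc were highest in P2 cells, but the globin genes were not. Mean Hbb-bs was 41.6 CPM in P2, 81.5 CPM in CD324+ and 86.6 CPM in CD31+ cells. Mean Hba-a1 was 32.6, 51.7 and 41.3 CPM in the same order.

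Of the 8 genes, 7 had a higher level in every E18.5 library than in every CD324+ library, which was also true of 34.8% of the 15863 genes tested. The same 7 were above all 9 E14.5 libraries (18.8% of genes tested). For 6 of them the mean level was at least 100 times that of CD324+ cells (2.03% of genes tested). Foxj1 met none of the 3 marks, and Rtkn2 fell short of the last. All 8 genes passed the low count filter, which the first 7 could do through their E18.5 counts alone, and because these contrasts chose the genes nothing is read from the counts.

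**Figure D1:**
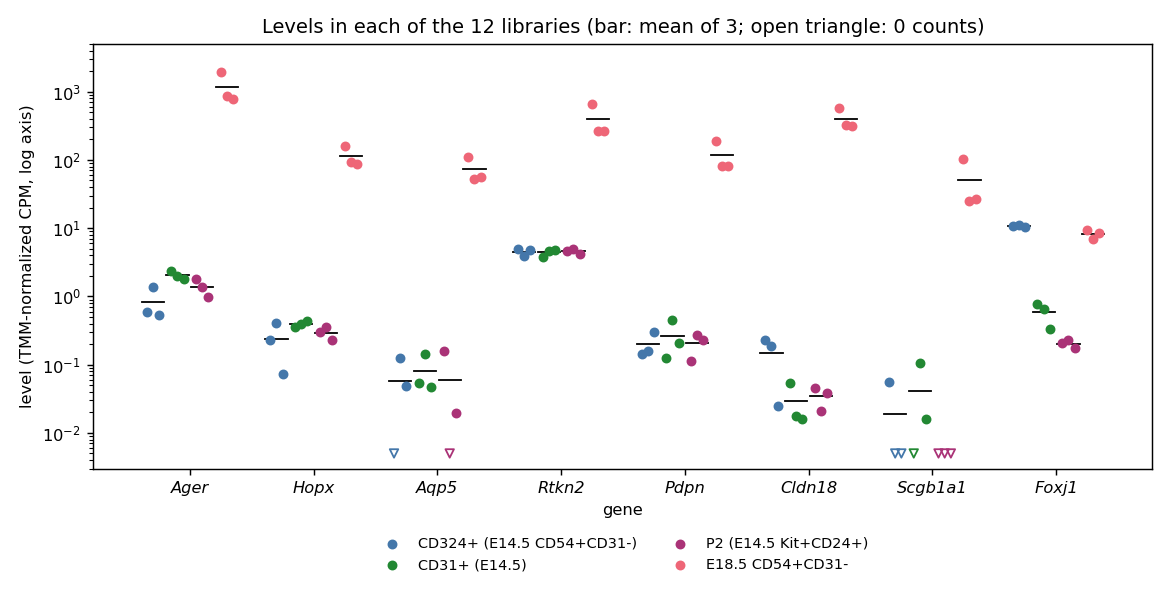
Level of each of the 8 genes in each of the 12 libraries, in TMM-normalized CPM on a log axis, colored by group, with bars at the mean of 3 libraries and open triangles for libraries with 0 counts. For 7 genes the 3 E18.5 points lie above all E14.5 points, with replicate 1 the highest, while Foxj1 lies near 10 CPM in both CD54+CD31- groups and below 1 CPM in CD31+ and P2 cells.

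Ager (ENSMUSG00000015452, chr17:34597862-34600936, GRCm38, plus strand) encodes RAGE, a pattern receptor of the immunoglobulin superfamily that AT1 cells carry at very high density on their basal surface. Its level at E18.5 was 1917, 852 and 793 CPM in replicates 1, 2 and 3 (mean 1187 ± 632, SD, n = 3). It was 0.594, 1.39 and 0.543 CPM in CD324+ cells, 2.39, 2.00 and 1.81 CPM in CD31+ cells, and 1.81, 1.35 and 0.982 CPM in P2 cells. The E18.5 libraries stood far above the rest, and the lowest of them was 332 times the highest E14.5 library. The mean level was 1412 times that of CD324+ cells, and 979 times when E18.5 replicate 1 was left out. Per kilobase of exon, Ager had the highest level of the 8 genes at E18.5, 555 ± 295 RPKM (SD, n = 3), the 29th highest of the genes tested.

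Cldn18 (ENSMUSG00000032473, chr9:99689461-99717267, minus strand) encodes claudin-18, a tight junction protein that seals the alveolar epithelium. At E18.5 it had 574, 323 and 313 CPM (403.3 ± 148, SD, n = 3). The 9 E14.5 libraries ranged from 0.0158 to 0.226 CPM, with 8, 6 and 1 counts in the CD324+ libraries and 1 to 3 counts in each of the others. The mean ratio of E18.5 to CD324+ cells was the largest of the 6 AT1 genes, 2751 with all libraries and 2168 without E18.5 replicate 1. The counts do not separate transcripts from the 2 start sites shown above. The antisense gene Gm16004, which shares no exon base with Cldn18, had 19 to 47 counts at E18.5.

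Rtkn2 (ENSMUSG00000037846, chr10:67979570-68059740, plus strand) is a further marker of AT1 cells. Its E18.5 levels were 662, 263 and 264 CPM (396 ± 230, SD, n = 3). It differed from the other AT1 genes in its E14.5 level, with 3.87 to 4.92 CPM in CD324+ cells, 3.81 to 4.86 CPM in CD31+ cells and 4.16 to 4.97 CPM in P2 cells. These ranges overlap almost entirely. The ratio of E18.5 to CD324+ cells was accordingly the smallest of the 7 genes, 87.2, and 57.9 without E18.5 replicate 1.

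Pdpn (ENSMUSG00000028583, chr4:143267431-143299564, minus strand) encodes podoplanin, a mucin-type glycoprotein of the apical membrane that links to the actin cytoskeleton. It had 188, 80.2 and 81.7 CPM at E18.5 (116.7 ± 61.9, SD, n = 3). It had 0.141, 0.157 and 0.296 CPM in CD324+ cells, 0.126, 0.445 and 0.206 CPM in CD31+ cells, and 0.115, 0.271 and 0.231 CPM in P2 cells. The 3 E14.5 groups overlapped, and the E18.5 mean was 589 times that of CD324+ cells and 408 times without E18.5 replicate 1. Mesothelial cells also make Pdpn, and the 8 mesothelium list genes summed to 465.7 to 700.1 CPM at E18.5 and 5.70 to 8.88 CPM in CD324+ cells, and their part in the Pdpn level was not tested.

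Hopx (ENSMUSG00000059325, chr5:77086988-77115121, minus strand) encodes a homeodomain protein that does not bind DNA and acts through other regulators. Its levels at E18.5 were 159, 93.7 and 87.0 CPM (113.2 ± 39.7, SD, n = 3). It had 0.226, 0.409 and 0.0740 CPM in CD324+ cells, 0.359, 0.392 and 0.444 CPM in CD31+ cells, and 0.299, 0.354 and 0.231 CPM in P2 cells. CD31+ cells lay above P2 cells in every library, by 1.35-fold in the mean, while both overlapped CD324+ cells. The E18.5 mean was 479 times that of CD324+ cells, 382 times without E18.5 replicate 1 and 754 times without CD324+ replicate 2. The antisense gene Hopxos shares 412 exon bases with Hopx and had 0 counts in all 12 libraries. Whether counting used strand is not given in the sources used here.

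Aqp5 (ENSMUSG00000044217, chr15:99590782-99594829, plus strand) encodes the apical water channel of AT1 cells. It had 110, 52.0 and 56.9 CPM at E18.5 (72.9 ± 32.1, SD, n = 3). The CD324+ libraries held 0, 4 and 2 counts, the CD31+ libraries 3, 8 and 3 counts and the P2 libraries 7, 0 and 1 counts, so no E14.5 library exceeded 0.161 CPM. The pooled counts gave a ratio of 1275 between E18.5 and CD324+ cells (95% exact binomial interval 586 to 3475, counting error only). The ratio of the means was 1248, and 932 without E18.5 replicate 1. It was 832 without CD324+ replicate 1 and 2954 without CD324+ replicate 2, since so few counts lie behind the lower level.

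Scgb1a1 (ENSMUSG00000024653, chr19:9083636-9087958, minus strand) encodes the small secretory protein uteroglobin, the most abundant product of club cells. It had 102, 25.4 and 26.9 CPM at E18.5 (51.4 ± 43.8, SD, n = 3). The CD324+ libraries held 2, 0 and 0 counts, the CD31+ libraries 0, 6 and 1 counts, and each of the 3 P2 libraries held 0, which allows up to 3 counts. The 2 counts against 10499 at E18.5 gave a pooled ratio of 2639 (95% exact binomial interval 730 to 21790, counting error only). The ratio of the means was 2728, 1387 without E18.5 replicate 1 and 1818 without CD324+ replicate 2 or 3. Of the 8 genes it varied most between the E18.5 libraries, with a coefficient of variation of 85.2%. Its exons are short, and per kilobase it ranked second of the 8, at 108 ± 92.0 RPKM (SD, n = 3), above Cldn18 with 90.5 ± 33.2, Hopx with 74.7 ± 26.2, Rtkn2 with 71.4 ± 41.5, Pdpn with 64.2 ± 34.1 and Aqp5 with 28.0 ± 12.3 RPKM. On this scale every Ager library was above every library of the other genes, neighbors in the order from Scgb1a1 to Pdpn overlapped, and Aqp5 lay below Pdpn without overlap.

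Foxj1 (ENSMUSG00000034227, chr11:116330704-116335399, minus strand) encodes the forkhead factor that switches on the motile cilia program. It had 9.46, 6.87 and 8.38 CPM at E18.5 (8.23 ± 1.30, SD, n = 3) and 10.7, 11.0 and 10.3 CPM in CD324+ cells (10.65 ± 0.321, SD, n = 3). It had 0.772, 0.659 and 0.333 CPM in CD31+ cells and 0.207, 0.229 and 0.173 CPM in P2 cells. The 4 groups did not overlap, in the order CD324+, E18.5, CD31+ and P2. Foxj1 thus had the highest E14.5 level of the 8 genes, followed by Rtkn2 with at most 4.97 CPM. It was the only 1 whose CD54+CD31- libraries of both ages all lay above the CD31+ and P2 libraries (as did 1911 of the 15863 genes tested, 12%). The position of E18.5 against CD324+ cells depended on the scaling: the log2 ratio was -0.37 with TMM, -0.16 with DESeq2's size factors, 0.06 with the authors' factors and 0.23 with total counts. The ratio of the means was 0.773 with TMM, and 0.716 without E18.5 replicate 1. Relative to the median log2 ratio of all genes tested, it was -0.21 with TMM, and between -0.21 and -0.20 with the other scalings. Per kilobase Foxj1 had 3.14 ± 0.495 RPKM at E18.5, the lowest of the 8, ranking 7772 among the genes tested.

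Across the 12 libraries, Pearson's r of log2(CPM + 1) lay between 0.989 and 0.999 for each pair of the first 7 genes, and between 0.456 and 0.519 for Foxj1 with any of them. These values describe 12 libraries of 4 groups that share depth and scaling, and for the first 7 genes they are set by the gap between the E18.5 libraries and the rest. The genes of most similar pattern, out of 13462 with a mean E18.5 level of at least 1 CPM, were Col4a4, Spock2 and Tmem139 for Ager (r of 0.998 to 0.999). For Hopx they were Muc1, Il18r1 and Ckmt1, for Aqp5 Lyz1, Cbr2 and Msln, and for Cldn18 Matn4, Irx1 and Lamp3. For Rtkn2 they were Dlk2, Tnip3 and Gm10499, for Pdpn Dlk2, Gm10499 and Dpt, and for Scgb1a1 Gm37516, Gabrp and Scnn1b. Between 199 and 311 genes had an r of at least 0.99 with each of these 7 genes, so the first 3 are a narrow choice. Only 17 genes reached that r with Foxj1, led by Myrf (0.998), Arhgef16 (0.997) and Cgn (0.997). Cgn, which encodes the tight junction protein cingulin, had 183 CPM in CD324+ cells, 114 CPM at E18.5, 3.5 CPM in CD31+ cells and 2.63 CPM in P2 cells.

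The wider AT1 list addressed whether genes of the same cell type, other than the 6 above, also differed between the ages. It held 20 genes, of which 18 passed the low count filter. By edgeR's quasi-likelihood test of E18.5 against CD324+ cells, 17 rose and 0 fell, against 35.9% of all 15863 genes tested that rose and 33.5% that fell. The median fitted log2 fold change was 9.12 in the list, 8.65 with the gene at 0 counts in CD324+ cells taken at its bound, and 0.03 over all genes tested. Several list genes had so few counts in CD324+ cells that they passed the low count filter through E18.5 alone and could not have been called lower. Of the 11 AT1 genes with at least 10 counts in every library of the fit, 10 rose and 0 fell. Gprc5a, a retinoic acid-induced receptor, rose from 0.224 to 614 CPM (log2 fold change 11.64, SE 0.67, edgeR adjusted p = 2.7e-05). Gramd2 rose from 0.0785 to 192 CPM (11.47, SE 0.48, edgeR adjusted p = 1.5e-05) and Spock2, a matrix proteoglycan, from 0.0961 to 230 CPM (11.42, SE 0.68, edgeR adjusted p = 2.9e-05). Scnn1g, a subunit of the epithelial sodium channel that clears fluid from the airspace, had 3 counts in CD324+ cells and 94.4 CPM at E18.5, a pooled ratio of 3296 (95% exact binomial interval 1128 to 15980). The smallest changes were in genes that CD324+ cells also expressed. Vegfa, the endothelial growth factor that AT1 cells release toward the capillaries, rose from 124 to 824 CPM (2.92, SE 0.27, edgeR adjusted p = 1.3e-04), and the keratin Krt8 had 244 CPM in CD324+ cells and 171 CPM at E18.5 (-0.32, SE 0.15, edgeR adjusted p = 0.090). Without E18.5 replicate 1, Krt8 was called lower (-0.48, SE 0.094, edgeR adjusted p = 0.0016) and 17 AT1 genes were called higher. Cav1, also an AT1 marker, was listed at 0 in all 12 libraries, CD31+ cells included, although endothelium is known to make it. In the lists below, Elf3 (regulators), Gsto1 and Chad (secretory), Foxf1 (lung mesenchyme) and Ccl21a (lymphatic endothelium) were also at 0 in all 12 libraries. Whether the counting missed reads of these genes was not tested, so their 0 is not read as absence. Cyp2b10 was too low to test, as was Trf of the hepatocyte list, with 0.0633 CPM in CD324+ cells.

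**Figure D2:**
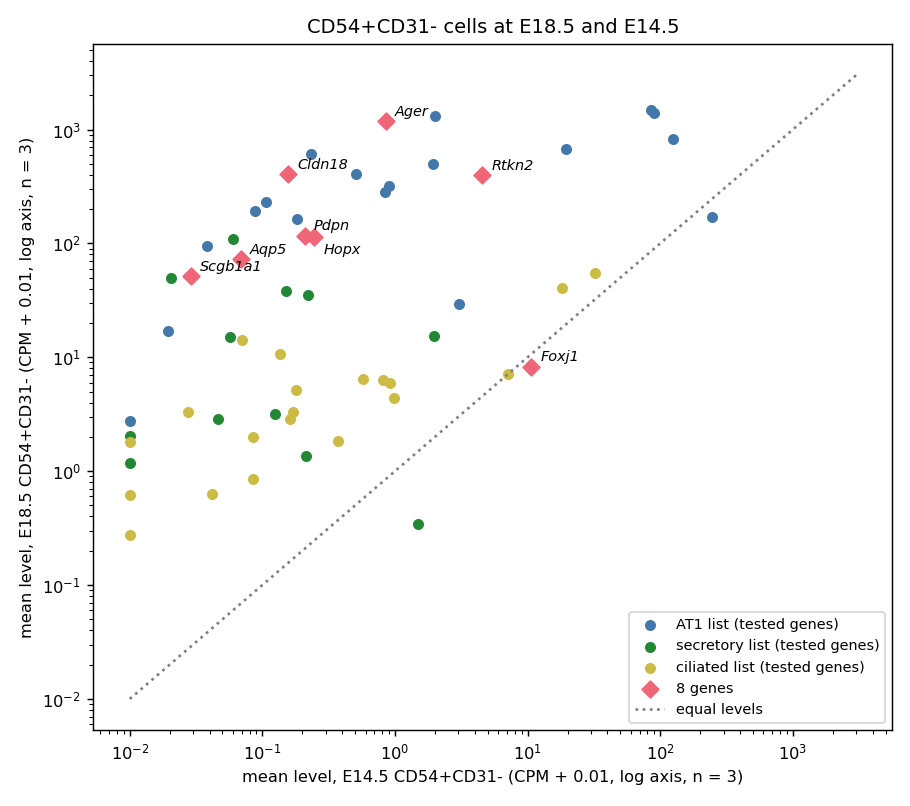
Mean level of the 8 genes (diamonds) and of the tested genes of the AT1, secretory and ciliated lists (circles) in E14.5 (horizontal) and E18.5 (vertical) CD54+CD31- cells, each the mean of 3 libraries in CPM plus 0.01 on log axes, with a dotted line at equal levels. Of the 8 diamonds, 7 lie far above the line and Foxj1 just below it, and Krt8 of the AT1 list and Bpifb1 of the secretory list are the circles below the line.

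Genes whose products act with these 8 proteins were listed as ligands, receptors and junction or actin partners. Of 15, 14 were tested, 7 rose and 0 fell (35.9% and 33.5% of all genes tested), with a median fitted log2 fold change of 0.88. Without E18.5 replicate 1, 7 rose and 2 fell. The 2 that fell were Rhoa (-0.46, SE 0.087, edgeR adjusted p = 0.0014 without that replicate and 0.46 with all libraries) and Cd44. Cd44, a membrane partner of podoplanin, had 177 CPM in CD324+ cells and 115 CPM at E18.5 (-0.43, SE 0.25, edgeR adjusted p = 0.17 with all libraries, 0.00056 without that replicate and 0.040 with the replicate block). The tight junction genes rose: Cldn3 from 1.04 to 97.2 CPM (log2 fold change 6.76, SE 0.49, edgeR adjusted p = 5.2e-05), Cldn4 from 0.383 to 14.6 CPM (5.44, SE 0.29) and the scaffold Tjp1 from 173 to 530 CPM (1.80, SE 0.19). Msn and Ezr, the moesin and ezrin linkers that tie podoplanin to actin, rose from 65.1 to 601 CPM (3.40, SE 0.32) and from 201 to 371 CPM (1.08, SE 0.18). In E14.5 CD31+ cells, Msn had 807 CPM, Tjp1 547 CPM and Ezr 81.0 CPM. Srf, the serum response factor to which Hopx binds, rose from 28.8 to 31.3 CPM (0.30, SE 0.087, edgeR adjusted p = 0.018), a call lost without CD324+ replicate 2 or 3 and in the fit of all 12 libraries. Of the RAGE ligands, S100b rose (2.26, SE 0.83, edgeR adjusted p = 0.047) but from 0.0870 to 0.368 CPM, and its call was lost in several alternatives (edgeR adjusted p = 0.090 with the replicate block). Hmgb1 (0.05, SE 0.15), S100a8 (0.67, SE 1.10) and S100a9 (1.59, SE 1.26) did not pass the test. Without CD324+ replicate 2, S100a8 (3.05, edgeR adjusted p = 0.017) and S100a9 (4.68, edgeR adjusted p = 0.0048) were called higher, as was S100a9 with the replicate block (2.85, edgeR adjusted p = 0.047). The RAGE adapter Diaph1 (0.22, SE 0.15) and the platelet podoplanin receptor Clec1b (0.09, SE 0.37) did not pass either.

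Of the regulators of lung epithelium, 18 were listed, 17 were tested, 15 rose and 0 fell, against 35.9% and 33.5% of all genes tested. The median fitted log2 fold change was 3.04. Nkx2-1 and Sox2, at 0 counts in CD324+ cells, passed the low count filter through E18.5 alone and could not have been called lower. Of the 14 regulators with at least 10 counts in every library, 12 rose. Nkx2-1, the homeodomain factor that specifies lung and thyroid endoderm, had 0 counts in the CD324+ libraries and 377, 259 and 230 CPM at E18.5, at least 10360-fold higher against a floor of 3 counts over the CD324+ group. Sox2, of the airway progenitors, was also at 0 in CD324+ cells and rose at least 33.8-fold, to 0.941 CPM. Grhl2 rose from 0.419 to 88.0 CPM (7.91, SE 0.43, edgeR adjusted p = 2.3e-05) and Klf5 from 0.731 to 147 CPM (7.85, SE 0.38, edgeR adjusted p = 1.8e-05), both regulators of epithelial differentiation. Yap1, the Hippo pathway coactivator, had 102 and 85.7 CPM (-0.06, SE 0.088, edgeR adjusted p = 0.55) and Id2 142 and 122 CPM (-0.03, SE 0.15, edgeR adjusted p = 0.87), and neither passed the test. Foxa1 and Foxa2, shared by liver and lung, rose by 0.80 and 0.60 on the log2 scale (SE 0.19 and 0.16).

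The secretory list held 15 genes other than Scgb1a1, of which 12 were tested. By edgeR's quasi-likelihood test 11 rose and 1 fell, against 35.9% and 33.5% of all genes tested. The median fitted log2 fold change was 7.90, or 6.28 with the 2 genes at 0 in CD324+ cells taken at their bound. Only 2 of them had at least 10 counts in every library, of which 1 rose and 1 fell, and most of the others passed the low count filter through E18.5 alone. Scgb3a2, a secretoglobin of the distal airways, had 1 count in CD324+ cells and 49.2 CPM at E18.5, a pooled ratio of 5114 (95% exact binomial interval 918 to 202000). Cbr2, a club cell carbonyl reductase, rose from 0.0502 to 110 CPM (11.32, SE 0.77, edgeR adjusted p = 4.4e-05). Lypd2 and Reg3g were at 0 counts in CD324+ cells and rose at least 73.0-fold and at least 41.6-fold. Scgb3a1, from the larger airways, rose only from 0.203 to 1.35 CPM (2.90, SE 0.76, edgeR adjusted p = 0.013), a call lost without CD324+ replicate 2 or 3 (edgeR adjusted p = 0.051 and 0.050). Bpifb1, an antimicrobial protein of the upper airways, fell from 1.48 to 0.336 CPM (-1.95, SE 0.41, edgeR adjusted p = 0.0048). Of 10 basal and neuroendocrine cell genes, 6 were tested, 3 rose (Krt14, Krt15 and Ngfr) and 0 fell, and the basal cell factor Trp63 had 0.400 and 0.479 CPM (0.42, SE 0.70).

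The ciliated list addressed the genes downstream of or beside Foxj1. All 20 were tested, and 19 rose and 0 fell by edgeR's quasi-likelihood test, against 35.9% and 33.5% of all genes tested. The median fitted log2 fold change was 4.50, or 4.07 with 3 genes at their bound. Of the 7 with at least 10 counts in every library, 6 rose and 0 fell, and the rest could be tested mainly through their E18.5 counts. Foxj1 itself, described above without a test, had a log2 ratio of -0.37 on the same scaling. Mcidas and Gmnc, which start the multiciliated program ahead of Foxj1, were at 0 counts in all 9 E14.5 libraries and at 1.78 and 0.607 CPM at E18.5, at least 63.7-fold and at least 21.8-fold higher. Tppp3, a tubulin polymerization protein, rose from 0.0598 to 14.0 CPM (7.91, SE 0.61, edgeR adjusted p = 6.5e-05), and Dynlrb2, a dynein light chain, had 2 counts in CD324+ cells and 3.33 CPM at E18.5, a pooled ratio of 178 (95% exact binomial interval 49.1 to 1472). The genes with the smallest changes, Hydin, Rfx3 and Dnah11, were those with the highest levels in CD324+ cells. Hydin, of the ciliary central pair, had 7.11 and 7.17 CPM (0.19, SE 0.21, edgeR adjusted p = 0.43), and Rfx3, a ciliogenic factor made in many cells, rose from 32.2 to 54.5 CPM (0.95, SE 0.090, edgeR adjusted p = 1.4e-04). Rfx3 also had 35.3 CPM in CD31+ cells and 46.9 CPM in P2 cells, unlike Foxj1.

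**Figure D3:**
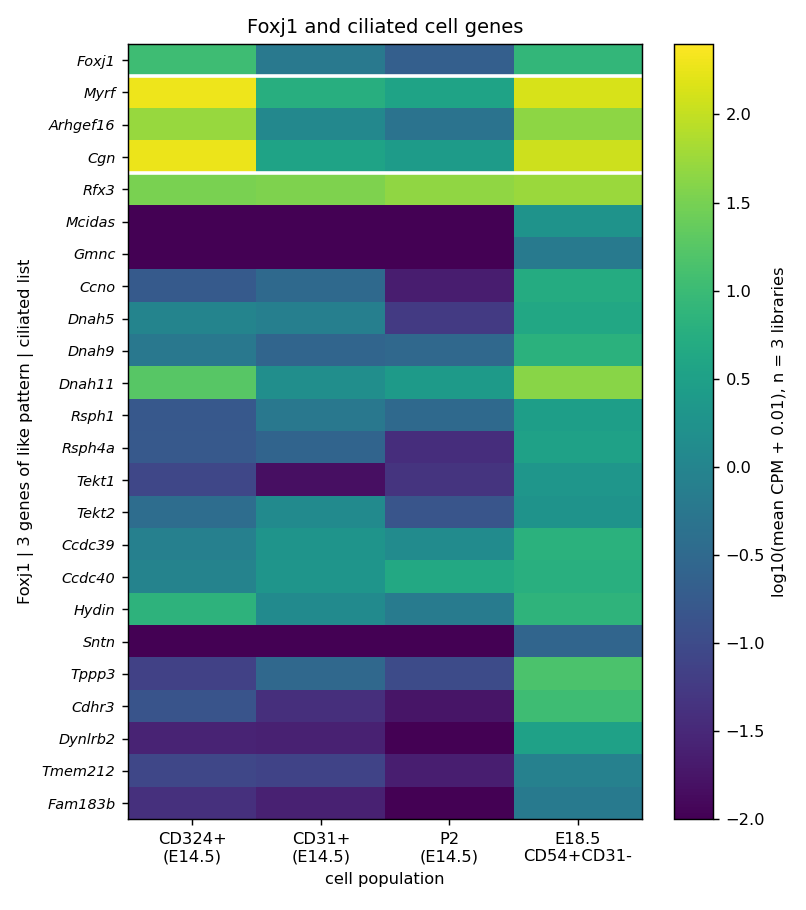
Mean level (log10 of mean CPM + 0.01, color, n = 3 libraries) in the 4 groups (columns) of Foxj1, of the 3 genes of most similar pattern (Myrf, Arhgef16, Cgn) and of the ciliated list (rows). Within their rows, Foxj1 and the 3 similar genes are brighter in both CD54+CD31- columns than in CD31+ and P2 cells. Most rows of the ciliated list are brightest in the E18.5 column. Colors show absolute levels, so rows differ in brightness.

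All 8 genes were highest in E18.5 replicate 1 (44.4% of genes tested). The level in this library was at least 1.5 times the mean of replicates 2 and 3 for 7 of the 8 (10.6% of genes tested). This ratio was 3.90 for Scgb1a1, 2.51 for Rtkn2, 2.33 for Ager, 2.32 for Pdpn, 2.02 for Aqp5, 1.81 for Cldn18, 1.76 for Hopx and 1.24 for Foxj1. Replicates 2 and 3 lay closer together, with ratios of replicate 3 to 2 from 0.928 for Hopx to 1.22 for Foxj1. The 6 AT1 genes together had 3609 CPM in replicate 1, 1663 CPM in replicate 2 and 1596 CPM in replicate 3, against 5.66 to 7.59 CPM in the 9 E14.5 libraries. Proportions within a library varied less for some pairs than for others. Ager was 0.155, 0.167 and 0.147 times the level of Sftpc, the surfactant protein C gene of AT2 cells, and 2.90, 3.24 and 3.01 times that of Rtkn2 in replicates 1, 2 and 3. It was 12.1, 9.09 and 9.12 times the level of Hopx and 3.34, 2.64 and 2.53 times that of Cldn18, higher in replicate 1 than in the other libraries. It was 18.8, 33.5 and 29.5 times the level of Scgb1a1, so the club cell gene was higher beside Ager in replicate 1. Against Alb, the Ager level was 0.797, 0.0320 and 0.0230.

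**Figure D4:**
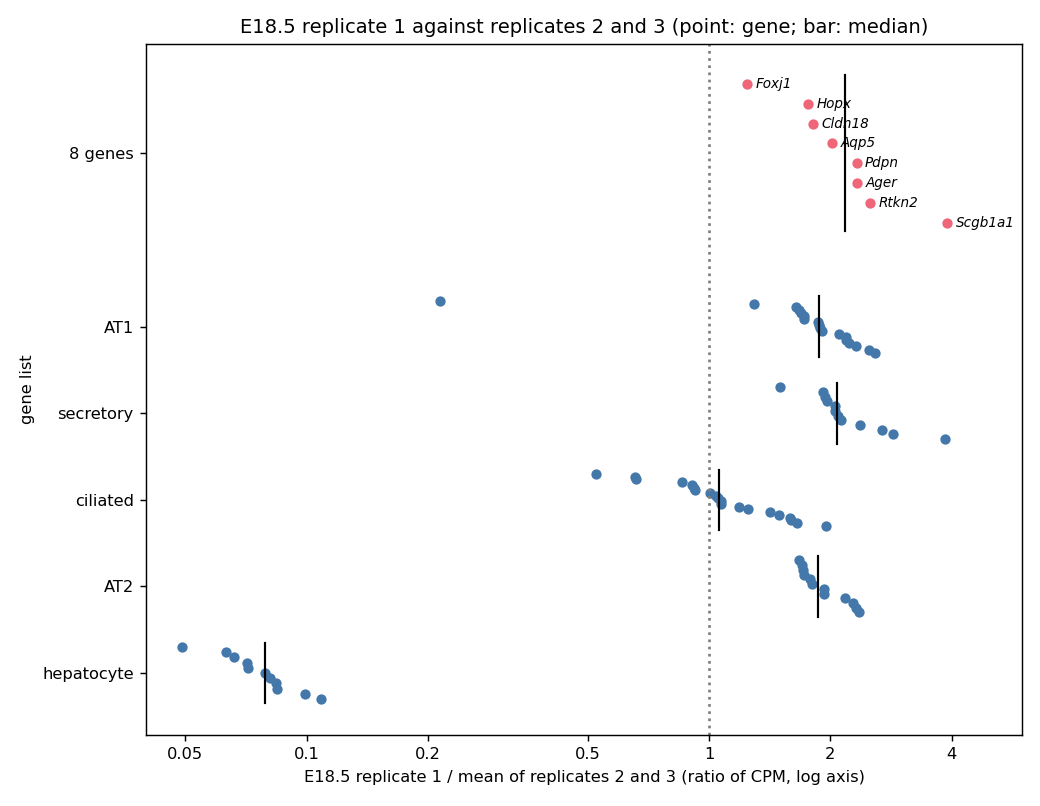
Level in E18.5 replicate 1 divided by the mean of replicates 2 and 3, on a log axis, for the 8 genes and for the tested genes of 5 lists (points are genes, bars are medians, and the dotted line marks equal levels). The AT1, secretory and AT2 lists center near a ratio of 2 and the ciliated list near 1, while all hepatocyte genes lie between 0.0491 and 0.109.

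The lists moved with this library in different degrees. The median ratio of replicate 1 to the mean of replicates 2 and 3 was 1.88 in the AT1 list, where replicate 1 was highest for 17 of 18 genes, 2.08 in the secretory list (12 of 12) and 1.86 in the AT2 list (12 of 12). It was highest in the heart muscle list, 2.47 (8 of 8), and 1.83 in the lung mesenchyme list (8 of 9). The ratio was 1.06 in the ciliated list, where replicate 1 was highest for 12 and lowest for 6 of 20 genes, and 1.01 over all genes tested. In the hepatocyte list it was 0.0787. The exception in the AT1 list was Igfbp2, an IGF-binding protein that liver also makes, with 8.59, 35.1 and 45.2 CPM. The summed hepatocyte level of 4120 CPM in replicate 1 was below that of the CD324+ libraries but above that of CD31+ and P2 cells (761 to 1060 CPM). What part these differences in other cells had in the level of the 8 genes was not tested. In replicates 2 and 3, where the hepatocyte list summed to 46820 and 61670 CPM, 7 of the 8 genes still had 57.9 to 2168 times the CD324+ level.

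Markers of several other cell types also rose between the ages, where 35.9% of all genes tested rose and 33.5% fell. Several genes of these lists passed the low count filter through E18.5 alone and could not have been called lower. With at least 10 counts in every library, 5 of 5 AT2, 5 of 5 mesothelium and 1 of 1 heart muscle genes rose. So did 7 of 7 endothelium, 6 of 7 biliary and 5 of 6 lung mesenchyme genes, but 0 of 2 stomach genes. The AT2 list rose in 12 of 12 genes by edgeR's test (median fitted log2 fold change 12.12) and summed to 12670 to 26480 CPM at E18.5, 281 to 296 CPM in CD324+ cells, 175 to 193 CPM in CD31+ cells and 371 to 427 CPM in P2 cells. Its largest changes were in the mucin gene Muc1 (2 counts in CD324+ cells and 366 CPM at E18.5, a pooled ratio of 19340, 95% exact binomial interval 5355 to 159700), Sftpc (0.610 to 7623 CPM), the chemokine gene Cxcl15 (0.121 to 983 CPM) and Lamp3 (0.0949 to 774 CPM). Its smallest were in Abca3, the lamellar body lipid transporter (157 to 908 CPM), and the protease gene Ctsh (89.0 to 750 CPM). The mesothelium list rose in 8 of 8 genes, led by Msln with 207 CPM, and the lung mesenchyme list in 8 of 9, with 1 lower (Plin2). The lung mesenchyme list summed to 671 to 1311 CPM at E18.5 and 163 to 184 CPM in CD324+ cells, but Limch1, which is also in the AT1 list, gave 780, 352 and 360 CPM of the E18.5 sums, and the mesenchymal factors Tbx4, Tbx5 and Fgf10 had 6.77, 6.69 and 1.61 CPM at E18.5. The heart muscle list rose in 8 of 8 tested genes, led by Myh7 with 177 CPM (176 to 379 CPM summed, against 1.06 to 2.74 CPM in CD324+ cells). Most of the E18.5 sums was Myh7, with 255, 141.5 and 133.6 CPM in replicates 1, 2 and 3. Next were Tnnt2 with 23.2 CPM and Myh6 with 21.0 CPM, while Tnni3 and Myl2 had 1.87 and 1.79 CPM. The biliary list rose in 7 of 8 genes, and in 8 of 8 without E18.5 replicate 1, led by Krt19 with 311 CPM. The endothelium list rose in 8 of 8, to 177 to 219 CPM summed at E18.5, where Kdr had 54.4 CPM against 2051 CPM in CD31+ cells. Of the stomach list, in which Cldn18 is also expressed, 6 of 10 genes were tested, 4 rose and 1 fell, with summed levels of 24.9 to 33.5 CPM at E18.5, 13.7 to 14.8 CPM in CD324+ cells and 46.9 to 49.9 CPM in P2 cells. The P2 sum was nearly all Muc6 (47.6 CPM), the gene that fell. When E18.5 replicate 1 was left out, 4 stomach genes rose and 2 fell, with Atp4a also called lower. Gif and Pgc, of the stomach glands, had 0 counts in CD324+ cells and 11.3 and 9.34 CPM at E18.5, at least 404-fold and at least 335-fold higher. Of the lymphatic endothelium list 5 genes were tested, 2 rose and 2 fell (Prox1 and Reln), and Lyve1 had 26.8 CPM at E18.5 and 1924 CPM in CD31+ cells. The hepatocyte list rose in 1 (Cps1) and fell in 2 (Afp and Hnf4a) of 11 genes. Without E18.5 replicate 1, 3 rose and 7 fell, while 0 fell without E18.5 replicate 2 or without any 1 of the CD324+ libraries, and Cps1 was not called with the replicate block (edgeR adjusted p = 0.061). The erythroid list, led by Tfrc, fell in 5 of 6 genes, and in 6 of 6 without E18.5 replicate 1. The macrophage list rose in 1 of 6 (Lyz2, with 530, 194 and 204 CPM in E18.5 replicates 1, 2 and 3). E18.5 replicate 1 was the highest of these libraries for Lyz2 and the lowest for the other 5 macrophage genes. The part of each of these cell types in the levels of Ager, Pdpn, Cldn18 and the other genes was not tested.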

How the data were processed

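RNA from Ter119-CD45- FL cells was extracted with the RNeasy micro kit, rRNA was removed enzymatically (Zap R), and libraries were prepared with the SMARTer Stranded Total RNA-Seq Pico kit. Per the submitters' processing notes and the study's methods, the authors trimmed reads with cutadapt 1.11, aligned single reads to GRCm38 (mm10) with STAR 2.5.0a and counted reads per gene with featureCounts 1.4.6-p3. The strand setting and the treatment of multiply aligned reads are not given in the sources used here. The authors deposited raw counts per gene for each library, beside a normalized score, in which a single factor for each library scales its counts before rounding. The counts were used throughout. The score served to recover the authors' factors. The 12 libraries held the same 38127 genes, matched by identifier, of which 37932 were found in GENCODE vM21 (GRCm38), the source of coordinates and exon lengths.

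Levels are CPM with TMM factors over 12 libraries, given as mean ± SD, and RPKM divides CPM by the union exon length. RPKM was used only to compare genes. The 3 E18.5 and 3 E14.5 CD54+CD31- libraries were compared with edgeR 4.0.16 (R 4.3.3; TMM, filterByExpr, quasi-likelihood test, two-sided, Benjamini-Hochberg over 15863 genes, adjusted p below 0.05), with age as the only factor. Standard errors were derived from the fold change and the F statistic. Genes at 0 counts in E14.5 CD54+CD31- cells were set against a floor of 3 counts over the group, and ratios on 1 to 3 counts have exact (Clopper-Pearson) 95% intervals. Intervals cover counting error only, since reads carry no molecular identifiers. The 8 genes and the 17 lists (194 entries) were chosen with earlier results of these data known, and the 8 genes were not tested. Genes named are the 8, the 4 largest and 2 smallest changes of the AT1, secretory, ciliated, AT2 and regulator lists and any opposite call, called partners, the 3 genes of most similar pattern, and, of each other marker list, the gene with the highest mean level in any of the 4 groups. Other list members given as examples (Foxa1, Foxa2, Igfbp2, Trp63, Krt14, Ngfr, Cav1, Cyp2b10, Elf3, Gsto1, Chad, Foxf1, Ccl21a, Trf, Afp, Hnf4a, Cps1, Plin2, Tbx4, Tbx5, Fgf10, Tnnt2, Myh6, Tnni3, Myl2, Gif, Pgc, Atp4a, Prox1, Reln, Dnah11, Klf1, Gata1, Epor, Hbb-bs, Hba-a1 and the partners that did not pass) were chosen after their values were seen. Cdk8, Zc3h7a and Il1rapl1 were named for their share of the counts. In each replicate pair the chi-square of the counts, divided by its degrees of freedom, was at least 42.0, so no pair was counted as the same sample. Alternatives were DESeq2 1.42.0 or its size factors within edgeR, leaving the low count filter off, requiring 10 counts in every library, a replicate block, fitting all 12 libraries at once, leaving out each library, and, added after seeing the data, the authors' factors. The tests were tried on simulated counts with 200 genes changed 2- or 4-fold. There edgeR called 108 of the 200 and 6 unchanged genes, and DESeq2 called 147 of the 200 and 67 unchanged genes. The DESeq2 test was used only as an alternative. Motifs were searched in RefSeq promoter windows (GRCm38.p6).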

Additional observations from a re-analysis of the deposited data

How the results depend on the processing

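The ratios of the 7 genes that were higher at E18.5 kept their direction under the other scalings and with each library left out, the alternatives run for them, with log2 ratios from 5.86 to 7.06 for Rtkn2 to 10.92 to 12.06 for Cldn18, and widest for Scgb1a1 (10.44 to 12.09) and Aqp5 (9.70 to 11.53). Scgb1a1 has no ratio without CD324+ replicate 1, since the other CD324+ libraries hold 0 counts. The log2 ratio of Foxj1 moved from -0.37 to 0.23 with total counts and to 0.06 with the authors' factors. These scalings moved the median log2 ratio of all genes tested by 0.60 and 0.42, and DESeq2's size factors moved it by 0.20. A minimum of 10 counts in every library left 10 AT1, 1 secretory and 6 ciliated genes called higher, because only 11, 2 and 7 of them could then be tested. The other alternatives gave 17 AT1, 10 or 11 secretory and 19 ciliated genes. Without E18.5 replicate 1, the median fitted log2 fold change was 8.68 in the AT1, 7.54 in the secretory and 4.50 in the ciliated list. It was 2.94 in the regulator, 11.66 in the AT2 and 6.40 in the mesothelium list. In the heart muscle list it was 5.11, against 6.04 with all libraries. All genes called higher numbered 4616 to 6592, and those called lower 4231 to 6325. Leaving out 1 library gave 5187 to 5915 higher and 4797 to 5774 lower calls.

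Same-numbered libraries of the 2 ages correlated at 0.049, 0.0088 and 0.032 in their deviations across genes, so the replicate numbers were not taken to pair them. With the replicate block 5330 genes were higher and 4999 lower, with 17 AT1, 11 secretory and 19 ciliated genes. With 3 libraries per group the number of libraries, more than depth, limits the precision, except for genes at a few counts in E14.5 cells.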
